A study of Mus musculus with 18 samples.

Results

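The genes described here encode proteins that store fat in lipid droplets, coat the droplets, or bring fatty acids into the cell and esterify them, and several of them are widely used as marks of a fatty liver (steatosis). The group held 10 genes, Cidea, Cideb, Cidec, Plin2, Plin4, Plin5, Cd36, Fabp4, Mogat1 and G0s2, of 21755 protein-coding genes on the autosomes and chromosome X. The members were listed by name, with earlier results of these data known. For each gene a window was taken, the gene body with 50 kb on both sides (mm10), and it was intersected with 6 lists of called ChIP-Seq regions. ChIP-Seq sequences the DNA that an antibody pulls down with a chromatin protein, and a called region is a stretch where such reads exceed a background.

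The lists came from whole mouse liver. Lamin B1 and the histone mark H3K9me3 were profiled in young (3 months) and old (21 months) male C57BL/6 animals, with 2 biological replicates of each antibody at each age. The transcription factor Foxa2 was profiled in male Zmpste24 null mutants (Zmpste24 KO) and wild-type (WT) littermates aged 12 weeks, also labelled C57BL/6, with 3 biological replicates each. The protocol text of the labels, which all samples share, speaks of wild-type liver, and the genotype was taken from the sample titles and the study's methods. Zmpste24 encodes the protease that matures prelamin A, and its loss from every tissue is used as a model of premature ageing, so the mutant differs from an old mouse in age as well as in genotype. The authors merged the replicates before regions were called. Each condition is therefore 1 list of positions with no signal, score, read count or replicate spread, and the values below are descriptions without a test. The lists hold 1624 young and 1519 old lamin B1 domains (466.3 and 930.3 Mb in total), 2784 young and 2496 old H3K9me3 regions, and 4960 WT and 8177 Zmpste24 KO Foxa2 sites. Read depth is not part of the lists. The study sequenced lamin B1 more deeply in young than in old livers and H3K9me3 more deeply in old livers, and before the Foxa2 sites were called it reduced the mutant reads to the number in WT. The part of depth in the differences between ages was not tested.

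Lamin B1 is a filament protein of the nuclear lamina, the mesh beneath the inner nuclear membrane, and the chromatin that touches it forms long domains that are mostly silent. H3K9me3 marks much of that compact chromatin. Foxa2 is a pioneer factor of liver, a forkhead protein able to bind sites on nucleosomes, and it binds near many genes of hepatocytes. A lipid droplet is a core of triglyceride inside a phospholipid monolayer. CIDE proteins enlarge droplets by moving lipid between them, perilipins coat the droplet and control the access of lipases, and uptake, transport and esterification of fatty acids fill the core. Whole liver also holds Kupffer, stellate and endothelial cells. Of 10 hepatocyte marker genes, 8 had a Foxa2 site in their window in each genotype, against 0 of 4 Kupffer cell and 0 of 4 stellate cell markers in WT and 2 of 4 of each in Zmpste24 KO. For endothelial markers the counts were 2 of 4 in WT and 3 of 4 in Zmpste24 KO, and for adipocyte markers 2 of 4 and 1 of 4. Over all protein-coding genes the shares were 30.8% in WT and 38.9% in Zmpste24 KO.

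For 5 of the 10 genes, Cideb, Cidec, Plin4, Plin5 and G0s2, lamin B1 was called in old livers and not in young ones, and Foxa2 was called in the window in both genotypes. Of all genes, 30.8% had a start site in a lamin B1 domain in old livers only, and 19.4% had Foxa2 in both genotypes. The share with both traits was computed only for Foxa2 in WT. It was 10.82% of all genes and 45.45% of 33 other lipid genes, which are described below. A young lamin B1 domain reached the window of 3 of the 10 genes (Cidea, Plin2 and Mogat1), where 44.8% of all protein-coding genes had one. An old domain reached 9 of the 10, all but Cd36, where the share of all genes was 69.1%. A young H3K9me3 region was present for 1 gene, Mogat1 (25.8% of all genes), and an old one for none of the 10 (41.9% of all genes). Foxa2 sites lay in the windows of 7 genes in WT (30.8% of all genes) and of 6 in Zmpste24 KO (38.9% of all genes). Thus the windows of these genes stood above the background for Foxa2 in each genotype and for lamin B1 in old livers. They stood below it for lamin B1 in young livers and for H3K9me3 at each age. These are counts of 10 genes without a test, and those for lamin B1 and young H3K9me3 differ from the background by few genes. Fabp4 has only 5.659% of its window in an old domain, and 8 genes had at least 20%. A flank of 100 kb gave 3 genes with old H3K9me3. A window can hold other genes too, and a member had the closest protein-coding start site to 5 of the 9 WT and 2 of the 5 Zmpste24 KO sites. For Foxa2 in Zmpste24 KO the direction turns with the flank, since within 10 kb of the gene body 0 of the 10 genes had a site where 20.3% of all genes did. The deposited H3K9me3 lists hold far fewer regions than the study states, so a gene without an H3K9me3 region is a gene without one in these lists. Windows were 101.1 to 207.1 kb long with a median of 110.2 kb beside a median of 117.4 kb over all genes. Plin4 and Plin5 are neighbours and share their domain and their Foxa2 site, so they are 1 locus among the 5 genes named first. Counted as 1 locus, they leave 8 loci with an old lamin B1 domain and 6 and 5 with a Foxa2 site in WT and Zmpste24 KO.

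**Figure D1:**
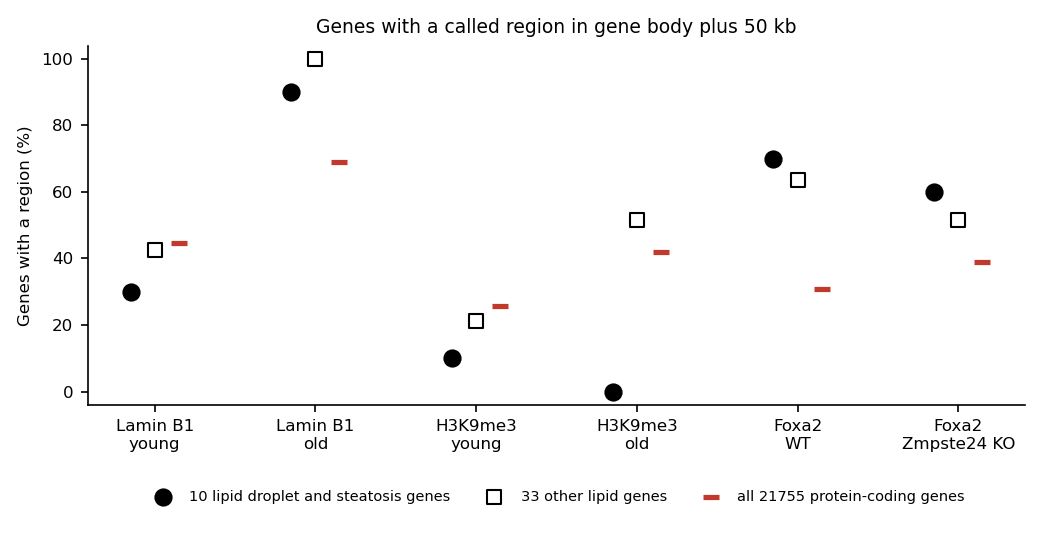
Share of genes with at least 1 called region in the gene body plus 50 kb (y axis, percent) in each of the 6 lists (x axis), for the 10 lipid droplet and steatosis genes (filled circles), 33 other lipid genes (open squares) and all 21755 protein-coding genes (red dashes). The circles lie above the dashes for old lamin B1 and both Foxa2 lists and below them for young lamin B1 and both H3K9me3 lists.

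Sequences are given for 6 Foxa2 loci of these genes that touch no exon, because they show which of the called sites hold a forkhead core and which do not. The core was searched as TGTTTAC on both strands. Each stretch is from mm10, on the plus strand, and holds at most 300 bases of the called site. Capitals mark a forkhead core, which reads GTAAACA where it lies on the minus strand. The first is the site in an intron of Cd36, chr5:17881269-17881568, called in WT only, with the core on the plus strand. The Plin4/Plin5 stretch, chr17:56078821-56079120, belongs to the site called in both genotypes and has its core on the minus strand. The intronic site of Cidec in WT, chr6:113427495-113427794, the upstream site of Cd36 in WT, chr5:17897542-17897841, the G0s2 site of both genotypes, chr1:193290013-193290312, and the upstream site of Cd36 in Zmpste24 KO, chr5:17918396-17918695, hold no core in the whole called site.
Cd36 intron, WT only: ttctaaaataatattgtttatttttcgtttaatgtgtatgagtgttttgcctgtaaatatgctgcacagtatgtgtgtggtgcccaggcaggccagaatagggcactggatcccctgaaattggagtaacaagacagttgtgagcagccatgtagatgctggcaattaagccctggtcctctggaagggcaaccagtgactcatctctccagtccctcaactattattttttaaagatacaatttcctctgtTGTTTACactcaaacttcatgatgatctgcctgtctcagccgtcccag
Plin4/Plin5, both genotypes: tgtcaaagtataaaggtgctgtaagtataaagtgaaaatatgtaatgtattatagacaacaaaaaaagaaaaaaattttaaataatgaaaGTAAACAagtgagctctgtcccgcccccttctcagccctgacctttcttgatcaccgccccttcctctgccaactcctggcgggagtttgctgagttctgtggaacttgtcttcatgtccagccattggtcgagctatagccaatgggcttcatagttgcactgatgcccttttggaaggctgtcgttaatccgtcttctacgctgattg
Cidec intron, WT only: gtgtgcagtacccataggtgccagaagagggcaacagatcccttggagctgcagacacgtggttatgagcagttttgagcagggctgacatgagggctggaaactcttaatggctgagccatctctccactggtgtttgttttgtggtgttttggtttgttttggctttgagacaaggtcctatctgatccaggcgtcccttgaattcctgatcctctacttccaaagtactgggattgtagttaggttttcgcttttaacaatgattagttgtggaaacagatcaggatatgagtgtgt
Cd36 upstream, WT only: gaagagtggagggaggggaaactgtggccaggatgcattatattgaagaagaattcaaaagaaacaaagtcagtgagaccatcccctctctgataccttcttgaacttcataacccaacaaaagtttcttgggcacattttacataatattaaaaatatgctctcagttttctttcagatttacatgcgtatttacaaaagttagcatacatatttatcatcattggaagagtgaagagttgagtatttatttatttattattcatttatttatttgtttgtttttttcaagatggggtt
G0s2, both genotypes: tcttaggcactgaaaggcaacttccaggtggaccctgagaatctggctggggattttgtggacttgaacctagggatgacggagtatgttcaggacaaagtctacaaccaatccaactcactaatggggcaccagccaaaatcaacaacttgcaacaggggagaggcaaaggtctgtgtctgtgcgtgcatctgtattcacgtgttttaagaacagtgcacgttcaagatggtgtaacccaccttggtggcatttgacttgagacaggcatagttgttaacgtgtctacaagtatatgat
Cd36 upstream, Zmpste24 KO only: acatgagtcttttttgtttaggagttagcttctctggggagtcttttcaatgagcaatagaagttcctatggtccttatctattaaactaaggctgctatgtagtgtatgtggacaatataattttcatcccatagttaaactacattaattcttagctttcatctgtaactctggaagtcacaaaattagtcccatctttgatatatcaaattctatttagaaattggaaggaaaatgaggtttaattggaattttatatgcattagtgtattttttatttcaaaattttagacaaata

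Among the 3 CIDE genes, Cideb and Cidec were free of lamin B1 in young livers and wholly inside a domain in old livers. Cideb, which acts in hepatocytes in the lipidation of very low density lipoproteins and in droplet fusion, lies at chr14:55754050-55758458 on the minus strand. Its window was covered by 0% in young and 100% in old livers. The old domain, chr14:55340001-55950000, is 610 kb long, holds 37 protein-coding start sites and does not overlap a young domain at any base. The nearest young domain began 531.5 kb upstream of the Cideb start site.

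Cidec, also known as Fsp27, drives the fusion of droplets in adipocytes and in steatotic hepatocytes and lies at chr6:113424634-113435760 on the minus strand. Its coverage likewise was 0% in young and 100% in old livers. The old domain, chr6:113150001-114490000, extends over 1340 kb with 29 start sites, is longer than 89.6% of old domains and again shares no base with a young domain. Young lamin B1 came no closer to the Cidec start site than 1204 kb. Neither gene had an H3K9me3 region in its window at any age. The closest of these regions to the Cidec start site was 694.2 kb away in young and 145.8 kb away in old livers.

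Of the 5 Foxa2 calls near these genes, 3 were no wider than 350 bp. Cideb had 2 WT sites and 1 Zmpste24 KO site. The shared site lies 31.99 kb downstream of the start site between genes, is 350 bp wide in WT and 326 bp in Zmpste24 KO, and 302 bp of it overlap. Only 3.145% of WT sites and 1.798% of Zmpste24 KO sites were narrower. The other WT site, 1080 bp wide, lies 9.645 kb upstream in exons of Ltb4r1, the gene of a leukotriene B4 receptor. The protein-coding start site closest to each of them belongs to another gene, Rabggta or Ltb4r1. Cidec had 1 site in each genotype, at different places. In WT it lies in an intron of Cidec itself, 8.115 kb downstream of the start site, and measures 326 bp. In Zmpste24 KO it lies 33.1 kb upstream in exons of Il17re and measures 1526 bp, wider than 92.99% of the list. Thus Cideb and Cidec have a called site within 10 kb of the gene body in WT and none within 10 kb in Zmpste24 KO.

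Cidea, which enlarges droplets in brown fat and is little expressed in lean liver, differed from its relatives. It lies at chr18:67343604-67367785 on the plus strand, and its window was covered by lamin B1 over 94.85% in young and 100% in old livers. The young domain, chr18:67300001-68330000, is 1030 kb long and lies wholly inside the old domain of 1390 kb. The domain begins 43.6 kb upstream of the Cidea start site in young and 383.6 kb upstream in old livers. Cidea was also the 1 member with a Foxa2 site in WT and none in Zmpste24 KO, a class that holds 11.4% of all genes. That site is 1352 bp wide, lies 31.64 kb upstream in an intron of Impa2 and is within lamin B1 domains of both ages. In Zmpste24 KO the nearest site was 215.9 kb upstream.

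Of the 3 perilipins, Plin4 and Plin5 entered a lamin B1 domain with age, whereas Plin2 was in a domain at each age with less of its window covered in old livers. Plin2, the most widely expressed droplet coat protein of liver, lies at chr4:86648386-86670060 on the minus strand. Lamin B1 covered 100% of its window in young and 57.58% in old livers. The young domain, chr4:86480001-86750000, is 270 kb long and the old domain, chr4:86650001-86790000, is 140 kb long. The old domain starts within the gene, so that the start site lies 20.06 kb inside its edge while the sequence downstream of the gene lies outside. Plin2 was the only member with less of its window covered in old than in young livers. No Foxa2 site lay in its window. The nearest was 570.3 kb away in WT and 120.1 kb away in Zmpste24 KO.

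Plin5, which coats droplets in cells that burn fat and ties them to mitochondria, and Plin4, a coat protein of small new droplets, lie side by side on chromosome 17 at chr17:56111601-56117596 and chr17:56100591-56109803, both on the minus strand. Their windows were at 0% in young and 100% in old livers. The old domain, chr17:55930001-57360000, is 1430 kb long with 63 protein-coding start sites, and 31.47% of it is covered by young domains. The young domain nearest to them is 360.2 kb upstream of the Plin4 start site and 352.4 kb upstream of that of Plin5. An old H3K9me3 region ended 89.8 kb downstream of the Plin4 start site, outside the windows, against 159.8 kb for the young region with the same first base.

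The windows of both perilipins held the same Foxa2 site, 1 call in each genotype. It lies 30.61 kb downstream of the Plin4 and 38.4 kb downstream of the Plin5 start site in WT, and the WT and Zmpste24 KO sites overlap over 285 bp. The site is 733 bp wide in WT and 322 bp in Zmpste24 KO, where only 1.516% of sites were narrower. The start site of Hdgfl2 is closest, at 0.439 kb. This is the site whose forkhead core on the minus strand is shown above, and the core is inside the called site of each genotype. The old lamin B1 domain covers it and young domains do not.

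G0s2, an inhibitor of the main droplet lipase (Pnpla2, also known as ATGL), behaved like Cideb and Cidec. It lies at chr1:193272161-193273217 on the minus strand, and lamin B1 covered 0% of its window in young and 100% in old livers. The old domain, chr1:193050001-193740000, is 690 kb long with 8 start sites and shares no base with a young domain. Young lamin B1 was no nearer than 1807 kb. The Foxa2 site was called in each genotype, 17.02 kb upstream of G0s2 in an intron of Lamb3. It measures 646 bp in WT and 347 bp in Zmpste24 KO, and the mutant site lies wholly inside that of WT. G0s2 has the closest protein-coding start site to it in both genotypes. The WT site holds 1 DR-1 element, described with the other motifs below, and the narrower Zmpste24 KO site does not contain it.

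Cd36 and Fabp4 stayed outside lamin B1 at their start sites in both ages. Cd36, the fatty acid translocase at the plasma membrane, lies at chr5:17781690-17888801 on the minus strand and has the widest window of the group, 207.1 kb. Lamin B1 covered 0% of it at each age, and so did H3K9me3. The nearest lamin B1 domain was 441.2 kb upstream in young and 2601 kb upstream in old livers. Cd36 had the most Foxa2 sites, 3 in WT and 1 in Zmpste24 KO, and no other protein-coding gene in its window. The WT sites lie 7.382 kb downstream of the start site in an intron (1093 bp), 8.891 kb upstream (661 bp) and 35.15 kb upstream (1028 bp). The Zmpste24 KO site, 29.75 kb upstream and 713 bp wide, falls between the latter 2 and overlaps neither. Cd36 is thus the closest protein-coding gene to all 4 sites, and none of them was called in both genotypes.

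Fabp4, a fatty acid binding protein of adipocytes and macrophages, lies at chr3:10204088-10208576 on the minus strand. Its window was at 0% in young livers and at 5.659% in old livers, just past the border of the window, because the domain downstream of it reached farther. In young livers this domain, chr3:10010001-10120000, ended 88.58 kb from the start site. In old livers, at chr3:10010001-10160000, it ended 48.58 kb away. The start site stayed outside. No Foxa2 site lay in the window, and the nearest was 163.2 kb away in WT and 95.68 kb away in Zmpste24 KO.

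Mogat1, a monoacylglycerol acyltransferase that makes diacylglycerol for triglyceride synthesis, was the only member with an H3K9me3 region in its window. It lies at chr1:78510991-78538173 on the plus strand. Lamin B1 covered 100% of its window at each age, in a domain of 660 kb (chr1:78090001-78750000) in young and of 480 kb (chr1:78270001-78750000) in old livers. H3K9me3 covered 77.85% of the window in young livers, in a region of 110 kb (chr1:78450001-78560000) that holds the start site, and 0% in old livers. In old livers the nearest H3K9me3 region, chr1:78010001-78430000, ended 80.99 kb upstream. Mogat1 was thus the 1 member whose start site left an H3K9me3 region between the ages, a class of 5.92% of all genes, while it kept lamin B1. Foxa2 had no site in the window, and the nearest was 428.3 kb away in WT and 121 kb away in Zmpste24 KO.

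**Figure D2:**
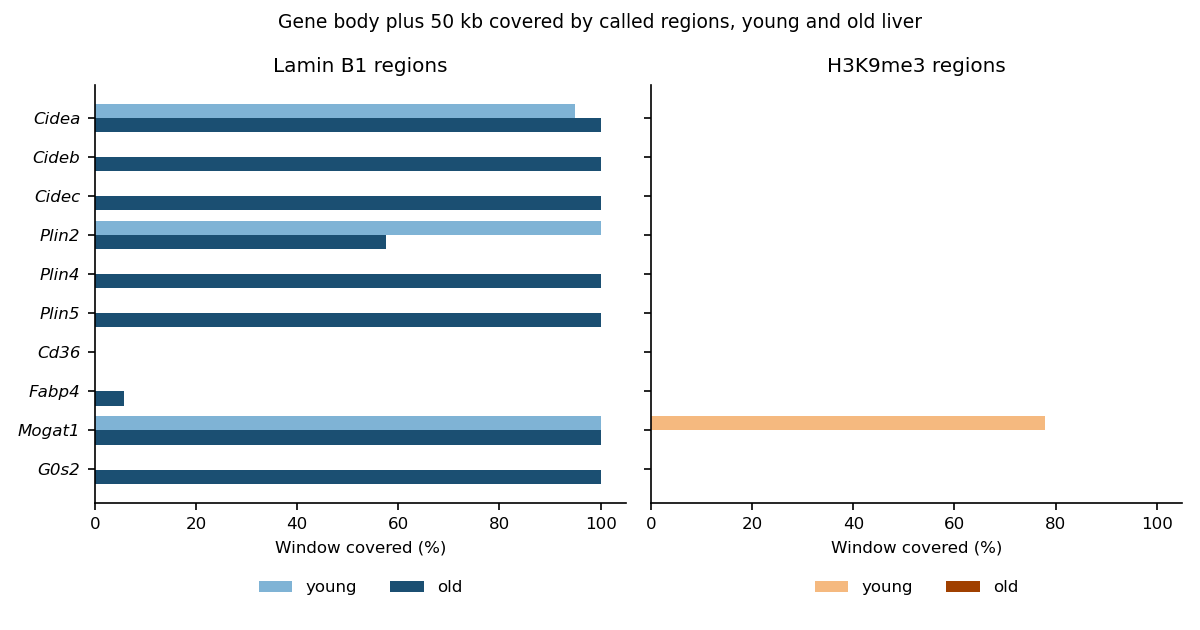
Share of each gene's window (gene body plus 50 kb, x axis, percent) covered by lamin B1 domains (left) and H3K9me3 regions (right) in young (light bars) and old (dark bars) livers, for the 10 genes (y axis). Cideb, Cidec, Plin4, Plin5 and G0s2 go from 0% to 100% for lamin B1, and Mogat1 in young livers has the only H3K9me3 bar.

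At the level of start sites, 3 of the 10 genes lay in a lamin B1 domain in young livers (36.34% of all genes) and 8 in old livers (62.81% of all genes). Cideb, Cidec, Plin4, Plin5 and G0s2 were inside in old and outside in young livers, 5 of 10 where the background was 30.8%. Plin4 and Plin5 lie in the same old domain and are not separate cases. None of the 10 left a domain, and 4.3% of all genes did, so for 10 genes this count is near the background. Cidea, Plin2 and Mogat1 were inside at both ages (32.04% of all genes). The 5 genes that entered a domain also had a WT Foxa2 site in their window, and 10.82% of all genes both entered a domain and had such a site. Among the 33 other lipid genes described below it was 15 (45.45%), so the combination is not particular to the 10 genes. The old domains over these 5 genes hold 8 to 63 protein-coding start sites, among them those of Fitm1 in the Cideb domain and of Plin3 in the Plin4/Plin5 domain. Old domains cover 930.3 Mb of the genome and young domains 466.3 Mb, and the direction of these counts is shared with all genes.

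**Figure D3:**
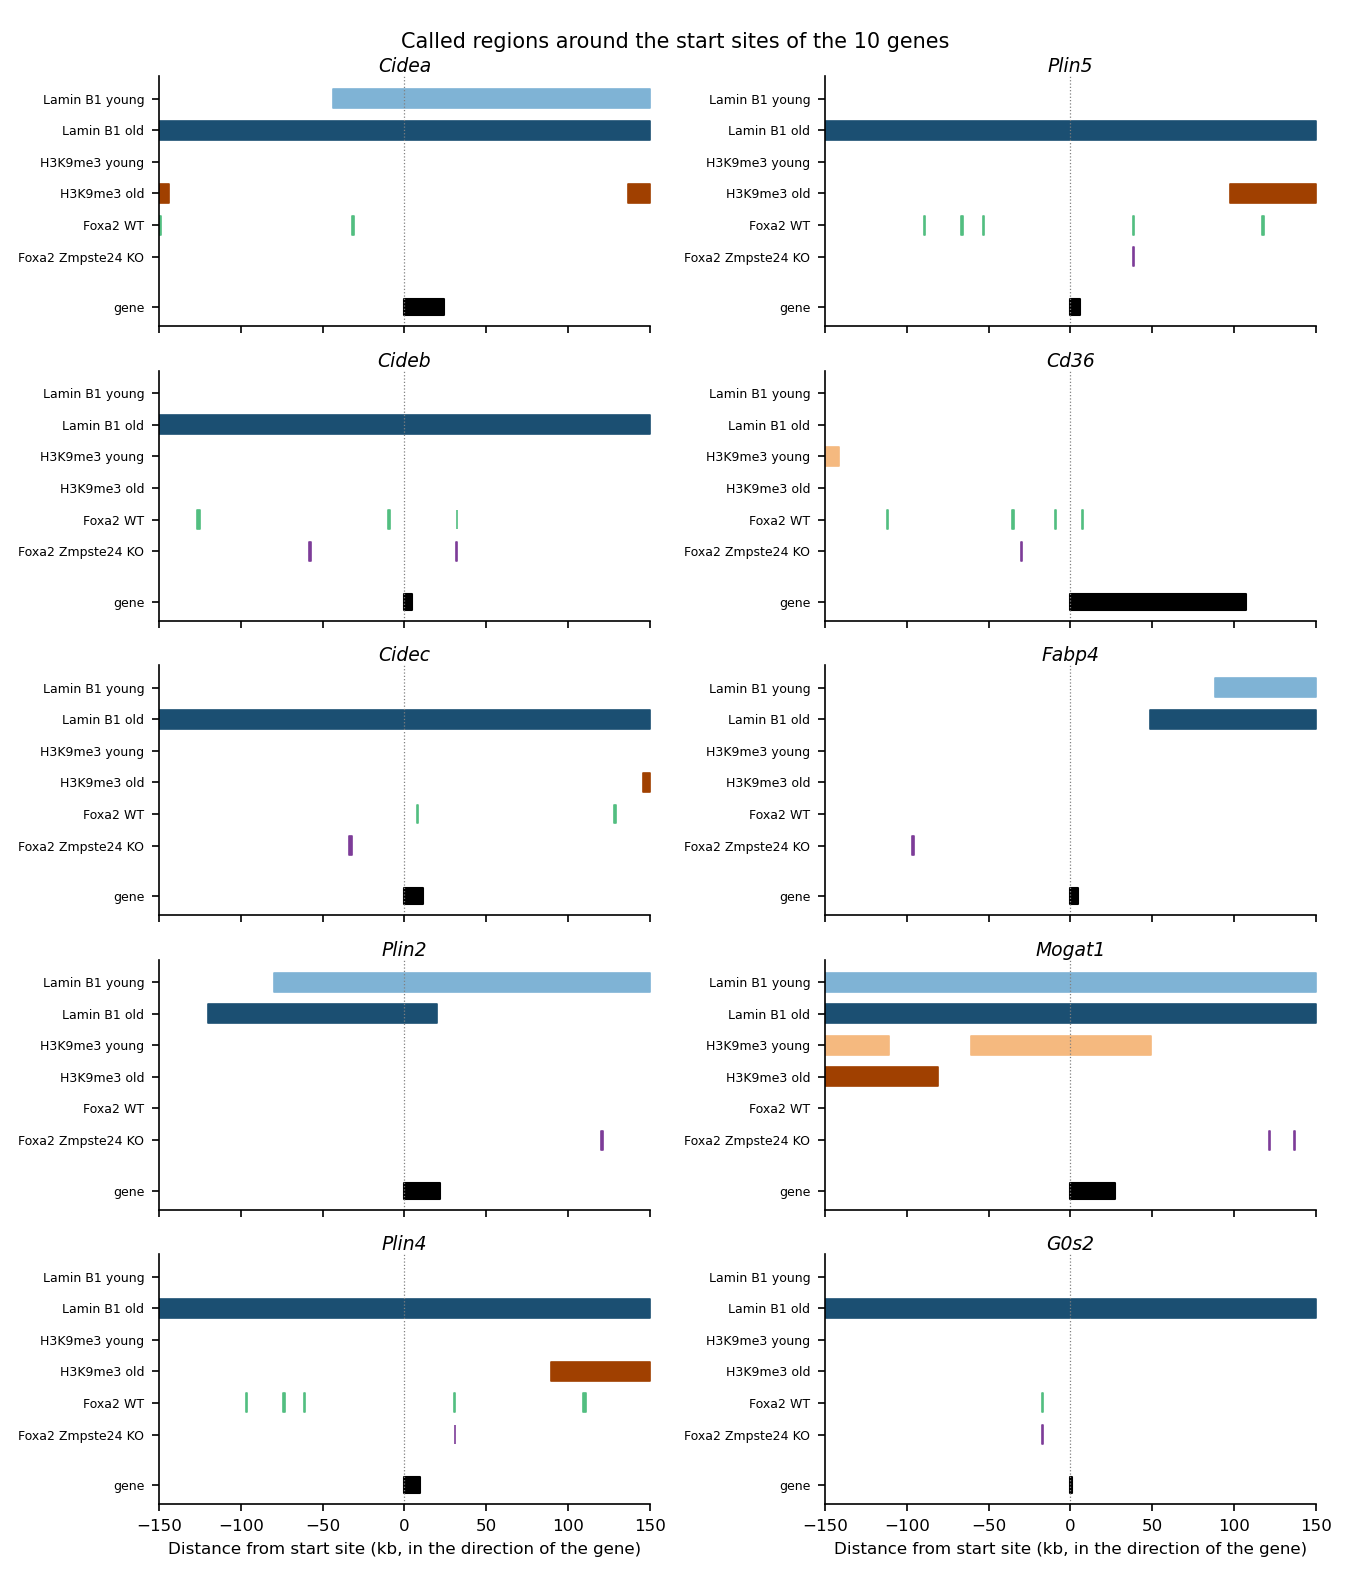
Called regions within 150 kb of the start site of each of the 10 genes (x axis, distance in kb in the direction of transcription, start site at the dotted line), with 1 lane for each list and the gene body as a black bar below. Old lamin B1 fills the whole span for Cideb, Cidec, Plin4, Plin5 and G0s2 where the young lane is empty, and in Plin2 the old domain is shifted upstream of the young one.

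In all, the windows held 9 WT and 5 Zmpste24 KO Foxa2 sites, which form 11 separate loci. Of these, 3 were called in both genotypes (near Cideb, Plin4/Plin5 and G0s2), 6 in WT only and 2 in Zmpste24 KO only. By gene, 6 of 10 had sites in both genotypes (19.4% of all genes), Cidea alone had a site in WT only, and none had a site in Zmpste24 KO only, a class of 19.5% of all genes. More WT than Zmpste24 KO sites were present for Cidea, Cideb and Cd36 (15.5% of all genes), and no member had more sites in the mutant (25.18% of all genes). Counted within 10 kb of the gene body, Cideb, Cidec and Cd36 had a WT site (16% of all genes) and none of the 10 had a Zmpste24 KO site (20.3% of all genes). The lists as a whole have the opposite balance, with more sites in Zmpste24 KO than in WT. The balance of the 10 genes also depends on the flank. At 100 kb, 7 of them had a WT site and 9 a Zmpste24 KO site, and the share of all genes was not computed there.

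Measured from the start site to the edge of the nearest site, the distances in WT ran from 6.836 kb for Cd36 to 570.3 kb for Plin2, with a median of 30.61 kb, where the median of all genes was 147.2 kb. In Zmpste24 KO they ran from 16.77 kb for G0s2 to 215.9 kb for Cidea with a median of 35.41 kb, and the median of all genes was 101.3 kb. Cidea, Cideb, Cidec and Cd36 had their nearest site closer in WT by more than 20 kb. Plin2, Fabp4 and Mogat1, the 3 genes without a site in the window, had theirs closer in Zmpste24 KO. For Plin4, Plin5 and G0s2 the nearest sites of the genotypes overlapped.

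**Figure D4:**
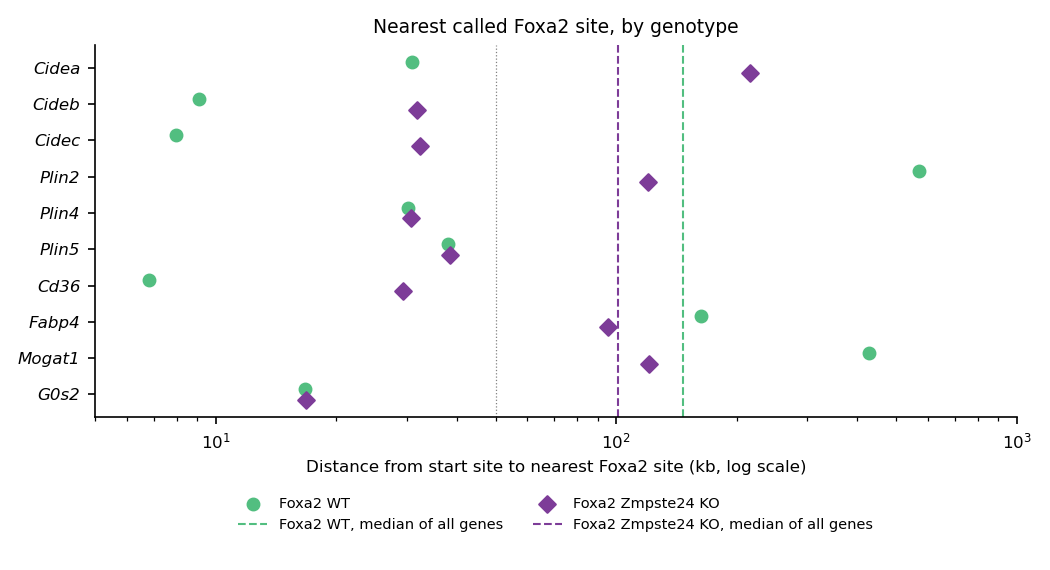
Distance from the start site of each of the 10 genes (y axis) to the nearest called Foxa2 site (x axis, kb, log scale) in WT (green circles) and Zmpste24 KO (purple diamonds), with the medians of all protein-coding genes as dashed lines and 50 kb as a dotted line. Circles lie left of diamonds for Cidea, Cideb, Cidec and Cd36, and right of them for Plin2, Fabp4 and Mogat1.

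At the 3 shared loci the called site was narrower in Zmpste24 KO, by 24 bp at Cideb, 411 bp at Plin4/Plin5 and 299 bp at G0s2. In the lists as a whole, the median width of shared sites was also lower in Zmpste24 KO (623 bp) than in WT (680 bp). That of unshared sites was 939 bp in Zmpste24 KO and 1024 bp in WT, so shared sites were the narrower ones in each list. All 3 shared sites of the mutant were under 350 bp, far below the median of their list of 889 bp. In WT, the 5 widest sites of the group, those of Cidea, Cideb, the intron and the far upstream site of Cd36 and Plin4/Plin5, measured from 733 to 1352 bp. Width is a product of the caller and is no measure of binding strength.

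**Figure D5:**
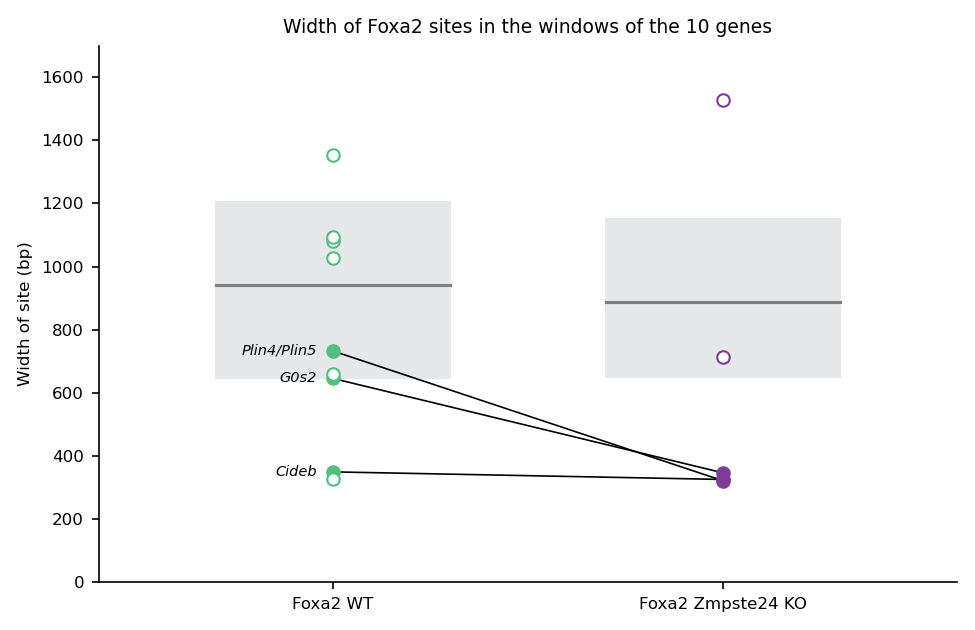
Width in bp (y axis) of each called Foxa2 site in the windows of the 10 genes in WT (green) and Zmpste24 KO (purple), where filled points joined by a line are the 3 loci called in both genotypes and open points are sites of 1 genotype. Grey boxes run from the lower to the upper quartile of the whole list with the median as a line, and all 3 joined points in Zmpste24 KO lie below the box.

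Motifs were searched on both strands of each called site. The forkhead core TGTTTAC was in 2 of 9 WT sites, those in the Cd36 intron and at Plin4/Plin5, and in 27.7% of the whole WT list. In Zmpste24 KO it was in 1 of 5 sites, Plin4/Plin5, and in 23.41% of the list. The GATA core AGATAA, bound by another family of pioneer factors, was in 3 of 9 WT sites (41.66% of the list) and 1 of 5 Zmpste24 KO sites (46.41%). The DR-1 element, which PPAR nuclear receptors bind, was taken as 2 copies of AGGTCA spaced by 1 base with up to 2 mismatches. It was in 3 of 9 WT sites, in the Cd36 intron, in the far upstream site of Cd36 and at G0s2, where 16.99% of the list had it. In Zmpste24 KO it was in 1 of 5 sites, the Cidec site in Il17re, and in 14.16% of the list. The intronic Cd36 site in WT holds all 3 motifs within 1093 bp, although the stretch printed above covers only the forkhead core. Where a motif was not found, this says only that these letters are not in the called site. The shares take no account of width. In Zmpste24 KO the sites near Cideb, Plin4/Plin5 and G0s2 (326, 322 and 347 bp) are far narrower than the list median of 889 bp. Those near Cd36 and Cidec measure 713 and 1526 bp.

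Of the 9 WT sites, 6 lay in an old lamin B1 domain (63.78% of the list) and 1, that of Cidea, in a young domain (35.7% of the list). Among the 5 Zmpste24 KO sites, 4 lay in an old domain (49.32%) and 0 in a young domain (28.08%). Young domains reached only the windows of Cidea, Plin2 and Mogat1, which held no Zmpste24 KO site, so the 0 was fixed beforehand. The sites outside old domains were those of Cd36. None of the 14 site calls lay in an H3K9me3 region of either age. The shares of the lists in young and old livers were 19.56% and 23.09% for WT and 21.68% and 22.53% for Zmpste24 KO. That absence was fixed by the windows, since only the window of Mogat1 held H3K9me3 and it had no Foxa2 site. It is no separate result about the sites. Foxa2 was profiled in other mice than lamin B1 and H3K9me3. The Foxa2 mice, at 12 weeks, were close in age to the young group (3 months) and far from the old group (21 months). These overlaps therefore compare positions and not the same chromatin.

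The other genes of the pathway were read from a list of 33 that covers lipases and their regulators, acyltransferases, droplet assembly, lipoprotein secretion and fatty acid uptake. Of these 33, 14 had lamin B1 in their window in young and 33 in old livers, 7 and 17 had H3K9me3, and 21 and 17 had a Foxa2 site in WT and Zmpste24 KO. As with the 10 genes, Foxa2 in WT (63.64%) and old lamin B1 (100%) stood above the background. Old H3K9me3 in the window was on the other side, with 51.52% of these genes against none of the 10 and 41.9% of all genes. At start sites this contrast was absent. Old H3K9me3 held the start site of 2 of the 33 (6.061%) and 0 of the 10, where 24.56% of all genes had it. In young livers it held 1 of the 33 (3.03%) and 1 of the 10, beside 13.05% of all genes. H3K9me3 covered more of the window in old than in young livers for 13 of the 33, for example Lpl, the lipoprotein lipase (63.01% and 100%), and less for 3, as it did for Mogat1. These 3 were Lpin1 (25.29% and 6.256%), Hsd17b11 (16.59% and 0%) and Mttp (32.33% and 19.44%).

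Start sites of 19 of the 33 (57.58%) were outside lamin B1 in young livers and inside in old ones. Among them were the lipases Pnpla2, Pnpla3, Lipe and Mgll, the acyltransferases Dgat1, Dgat2, Mogat2, Agpat2, Gpat3, Gpat4 and Gpam, the phosphatase Lpin1, the droplet proteins Plin3, Hsd17b11 and Hsd17b13, and Fitm1, which acts in droplet formation. Lpl, Fabp1 and Acsl1, which act in the uptake, transport and activation of fatty acids, were the others. Pnpla2 and its inhibitor G0s2, on chromosomes 7 and 1, are thus both in this class, which holds 30.8% of all genes. Mttp, the transfer protein for lipoprotein assembly, was the only gene of the list whose start site left a domain, with 100% of its window covered in young and 58.12% in old livers. A Foxa2 site in WT only was present for Abhd5, Agpat2, Gpat3, Gpam, Ldah and Mttp, and in Zmpste24 KO only for Plin1 and Mgll. Fabp1, the liver relative of Fabp4, had 4 WT sites and 1 Zmpste24 KO site in its window, while Fabp4 had none. Within 10 kb of the gene body, 11 of the 33 had a WT site and 9 a Zmpste24 KO site, beside 16% and 20.3% of all genes.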

How the data were processed

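Chromatin from snap-frozen liver was immunoprecipitated and sequenced. The authors aligned reads to mm10 with BWA, removed duplicates, kept unique reads, merged replicates and called regions, with Epic (10 kb windows, gap of 3) for lamin B1 and with PeakSeq for Foxa2 over input. The caller of the H3K9me3 regions is named SICER per the labels. The deposited values are positions alone (unit other). The H3K9me3 lists hold far fewer regions than the study states, and H3K9me2 was not analysed here.

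Genes came from GENCODE vM21 and sequence from GRCm38.p6. The start site of a gene is the upstream end of its gene record. Start sites of single transcripts were not used, so distances and sides hold for that end only. Regions counted at an overlap of at least 1 bp, and coordinates count from 1. The closest gene is the protein-coding start site nearest to the site's midpoint. Motif shares leave out sites on chromosome Y. Python 3.11.15, numpy 2.4.6, pysam 0.24.0, samtools 1.23.1 and matplotlib 3.10.9 were used, and the overlap and motif code was tested on simulated data. All 10 members were named, with other lipid genes that change class. Printed sequences were ranked by forkhead cores, then distance. Members and lists were chosen with earlier results of these data known.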

Additional observations from a re-analysis of the deposited data

How the results depend on the processing

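No paired analysis was possible because each list merges its replicates, so no replicate was left out and no stricter score was set. Of 74 recomputed values, 55 stayed within 1.5 times the reported count or within the 95% binomial interval of the share, and 19 moved.

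The Foxa2 counts depended on the flank. For WT, 7 genes with a site became 2 with the gene body alone, 3 with 10 kb and 3 with sites wider than the list median. For Zmpste24 KO, 6 became 0, 0 and 1. With 100 kb the counts were 7 for WT and 9 for Zmpste24 KO. A flank of 100 kb gave 3 genes with old H3K9me3 in place of 0, and changed the mean coverage of the windows from 7.785% to 4.842% for young and from 0% to 2.172% for old H3K9me3 (chosen after seeing the data). Taking all 53843 annotated genes as background gave 36.16% and 58.11% for young and old lamin B1, 28.28% and 38.56% for H3K9me3, and 23.84% and 32.48% for Foxa2 in WT and Zmpste24 KO. The forkhead core was in 1 WT site, not 2, within 150 bp of the midpoint, and in 2 Zmpste24 KO sites, not 1, when TGTTTGC also counted. With all annotated genes, a member was closest to 3 WT sites in place of 5 and to 1 Zmpste24 KO site in place of 2. The lists give no depth per region, so absence from a list is absence of a call.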
